A study of Oryza sativa with 12 samples.

Results

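Genes of glycerolipid and membrane lipid metabolism were followed in leaf blades of rice (Oryza sativa). A gene was a member when the pathway column of the deposited tables placed it in the KEGG map of glycerolipid or of glycerophospholipid metabolism. A pair of glycerophosphodiesterase loci, LOC_Os02g31030 and LOC_Os08g42390, was set aside. This gave 335 members of 32846 genes, with 208 loci in the glycerolipid map, 215 in the glycerophospholipid map and 88 in both. The rule itself used no expression value.

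The plants were wild type (WT) or carried the Oshmgb1 mutation, in a gene for a chromatin protein of the HMGB family, and each genotype was given high or low phosphate (Pi). The 4 groups were WT at high Pi, WT at low Pi, mutant at high Pi and mutant at low Pi, with 3 libraries each, numbered below as WT-HP, WT-LP, MUT-HP and MUT-LP 1 to 3. Seedlings of every group spent 14 d at high Pi, and a further 7 d at high or at low Pi brought them to 21 d. The kind of lesion in the mutant, the number of mutant lines, the hour of harvest and whether libraries came from separate plants are not stated in the labels, so a p-value speaks only of the spread among these libraries, which may be technical. The series' design text gives the same concentration for both Pi levels, so the size of the Pi step is not known here.

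Leaf membranes are built on glycerol carrying fatty acids and a head group. In chloroplast membranes the head group is mostly galactose, as mono- or digalactosyldiacylglycerol (MGDG, DGDG), or the sulfur sugar sulfoquinovose, and neither holds phosphorus. Elsewhere in the cell phospholipids prevail, and plants short of Pi are known to degrade part of them and to fill the place with DGDG and sulfolipid.

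Values are FPKM, in which fragment numbers are divided by transcript length and by the mapped total. Their sums ran from 549457 to 583292 per library, and members together took 0.663 to 0.800% of the sum. Summed FPKM of 26 leaf mesophyll markers was 31136 to 62696 per library, against 2.07 to 4.82 for 16 seed markers and at most 0.56 for 7 root markers, of which 11 and 4 were at 0 in every library. In the mutant libraries LOC_Os06g51220, the locus known as OsHMGB1 although no file pairs the names, stood at 516 to 726 FPKM, below the 1177 to 2147 of the WT libraries. Summed FPKM of 9 low-Pi markers (SPX domain proteins and purple acid phosphatases) was 23.8 to 29.6 in WT at high Pi and 50.6 to 206 at low Pi, and 24.2 to 34.7 and 66.2 to 94.8 in the mutant. Another gene set that moved was 45 dividing cell markers, picked by a description of core histone or cyclin-dependent kinase B, with 5 at 0 throughout. Their sums were 1232 to 1461 in WT at high Pi and 1758 to 3732 in WT at low Pi. In the mutant these sums were 1948 to 2325 at high Pi and 1373 to 1654 at low Pi. The kinase LOC_Os01g67160 was lower in the mutant at high Pi, where the sums were higher. Its means at high and low Pi were 11.9 and 13.4 FPKM in WT and 8.04 and 8.96 in the mutant. Fewer cells of a type and less RNA per cell cannot be told apart in such samples.

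Members fell into roles by their description or, where it named only a domain, by the orthology column. There were 13 loci for galactolipid and sulfolipid synthesis, 41 for phospholipid breakdown, 17 phosphatidate phosphatases and diacylglycerol kinases, 50 for triacylglycerol synthesis and lipases, 52 for glycerol phosphate and acyltransfer, 29 for phospholipid head groups, 26 aldehyde dehydrogenases and sugar enzymes, and 6 acyl-protein thioesterases. Another 85 were described as members of other protein families, such as NAC transcription factors, and 16 as expressed protein only. Tests covered the 202 members that reached an FPKM of 1 in 3 or more libraries; of the other 133, 25 were listed at 0 in every library. For 7 tested members the limit was met in 5 libraries or fewer. Where all libraries that met it lay on the higher side of a comparison, the filter itself favoured a difference there. This was so of 3 members called higher at low Pi in both genotypes (LOC_Os04g34000, LOC_Os01g46240 and LOC_Os01g45020) and of 1 called lower in the mutant at high Pi (LOC_Os03g15460). Counts of calls below include them, and their own tests are not given.

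Under low Pi in WT, 23 of the 202 tested members rose and 12 fell at an adjusted p below 0.05 (limma, Benjamini-Hochberg over 17630 genes). That is 17.3% of them, beside 13.3% of all tested genes, of which 8.43% rose and 4.87% fell. In the mutant 23 rose and 19 fell, 20.8% beside 18.8% of all tested genes (10.5% higher, 8.28% lower). Without the 3 members that the filter favoured, 20 of 199 rose and 12 fell in WT, and 20 rose and 19 fell in the mutant. The median log2 fold of tested members was 0.06 in WT and 0.00 in the mutant, beside 0.07 and 0.00 for all tested genes. Among the 138 tested members with a lipid role, 13 rose and 10 fell in WT, and 15 rose and 15 fell in the mutant. Those calls made 16.7% and 21.7%, beside the same 13.3% and 18.8% of all tested genes. The split of calls depended on scaling, since 18 members rose and 17 fell in WT after median-of-ratios scaling. The count in WT dropped to 18 without WT-HP2, to 13 without WT-LP3 and to 22 in a fit to the 6 WT libraries, and that in the mutant to 27 without MUT-HP2. Of the 34 tested dividing cell markers, 9 rose and 0 fell in WT, and 1 rose and 6 fell in the mutant; their part in the results on lipid genes was not tested.

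The low-Pi folds in WT and in the mutant rest on separate libraries. Their calls share an estimate of the spread from all 12 libraries, so the lists of calls are not independent. Members that rose in both numbered 14, 60.9% of those that rose in WT and 60.9% of those that rose in the mutant. Of the 14, 3 were favoured by the filter. Over all tested genes 776 rose in both, 52.2% and 42% of the respective lists. Those that fell in both numbered 5, 41.7% and 26.3% of the respective lists, beside 43.8% and 25.8% over all tested genes. In opposite directions 0 of 202 tested members and 126 of all 17630 tested genes were called. With so small a share over all genes, the 0 says little about members. Pearson's r of the log2 folds in WT and mutant was 0.482 across 138 genes with a lipid role and 0.462 across all 17630 tested genes, and genes are not independent replicates.

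**Figure D1:**
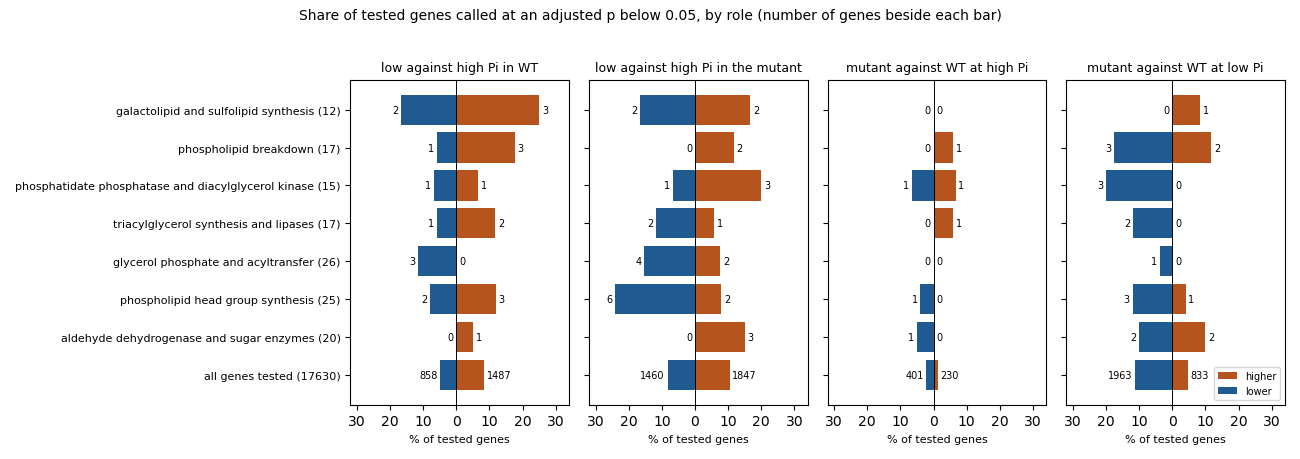
Share of tested genes called higher (right) or lower (left) at an adjusted p below 0.05, in % of the tested genes of each role, for 4 comparisons; numbers beside the bars count genes and the number after each role is how many were tested. Galactolipid and sulfolipid genes had 3 higher, 1 of them favoured by the filter, and 2 lower at low Pi in WT, and 0 of 12 differed between genotypes at high Pi.

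Galactolipid synthesis starts with MGDG synthases, which move galactose onto diacylglycerol. The tested loci for both galactolipids and sulfolipid showed no common direction at low Pi: of 12, 3 rose and 2 fell in WT, and 2 rose and 2 fell in the mutant. Called shares were 41.7% in WT and 33.3% in the mutant, beside 13.3% and 18.8% of all tested genes. Without LOC_Os04g34000, 2 of 11 rose and 2 fell in WT, and 1 rose and 2 fell in the mutant. LOC_Os02g55910, an MGDG synthase, had 6.88, 3.5 and 3.96 FPKM in WT at high Pi and 6.94, 9.89 and 11.77 at low Pi. Each WT low-Pi library lay above every WT high-Pi library, the nearest pair almost level. The gene rose in WT (log2 fold 0.88, SE 0.22, adjusted p = 0.0237). That call was lost without WT-HP2 (adjusted p = 0.0894) or WT-HP3 (0.0781), without WT-LP2 (0.0652) or WT-LP3 (0.102), and in a fit to the 6 WT libraries alone (0.0740). In the mutant it stood at 3.79, 4.38 and 3.51 FPKM at high Pi and 7.30, 5.13 and 6.43 at low Pi (0.57, adjusted p = 0.0976).

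The other expressed MGDG synthase, LOC_Os09g25580, fell in the mutant and gave no call in WT. Its mutant values were 21.97, 26 and 32.11 FPKM at high Pi and 17.83, 14.76 and 14.56 at low Pi, with no overlap (log2 fold −0.72, SE 0.17, adjusted p = 0.0104). WT values overlapped, at 22.79, 16.64 and 16.03 at high and 15.21, 17.19 and 18.64 at low Pi (−0.10, adjusted p = 0.730). The difference between these responses was −0.62 with an adjusted p of 0.166. A further locus, described as MGD2 (LOC_Os08g20420), was not tested: its highest value in any library was 0.08 FPKM.

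DGDG synthases add a further galactose to MGDG, and DGDG is the galactolipid known to accumulate in plants short of Pi. On the scale of the test, log2(FPKM + 1), which understates folds of low genes, LOC_Os11g05990 was the member of this family with the largest change. It had 42.19, 38.17 and 39.83 FPKM in WT at high Pi and 13.62, 12.10 and 14.81 at low Pi. Mutant values were 55.22, 48.14 and 38.92 at high Pi and 24.05, 28.35 and 19.64 at low Pi. The gene fell at low Pi in both genotypes, and every low-Pi library lay below every high-Pi library. The log2 fold was −1.50 in WT (SE 0.15, adjusted p = 0.000112) and −0.95 in the mutant (SE 0.15, adjusted p = 0.0015). At low Pi the mutant stood above WT without overlap (0.78, adjusted p = 0.00725), while the difference between the responses was 0.55 with an adjusted p of 0.179.

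LOC_Os02g33580, another DGDG synthase, also fell in WT, from 49.19, 42.04 and 46.30 FPKM at high Pi to 35.52, 33.60 and 31.52 at low Pi (log2 fold −0.44, SE 0.10, adjusted p = 0.0143). The call was lost without WT-HP1 (adjusted p = 0.0526) or WT-LP3 (0.0647). In the mutant the groups overlapped, with 39.32, 43.56 and 35.88 at high Pi and 44.13, 38.76 and 39.84 at low Pi (0.05, adjusted p = 0.771). LOC_Os04g34000, also a DGDG synthase, stood at a low level. It had 0.85, 0.36 and 0.61 FPKM in WT at high Pi and 1.15, 1.95 and 1.81 at low Pi, and in the mutant 0.55, 0.54 and 0.48 at high Pi and 2.29, 1.17 and 2.30 at low Pi. It entered the test through its low-Pi libraries alone, so these levels are a description.

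A pair of DGDG synthase loci gave no call. LOC_Os03g16140 ranged from 14.30 to 45.85 FPKM over the libraries, with groups that overlapped in each comparison, and LOC_Os03g11560 from 3.35 to 5.91. Summed over the 5 DGDG synthase loci, FPKM was 113.7 ± 16.7 in WT at high Pi and 79.8 ± 11.9 at low Pi (SD, n = 3). Mutant sums overlapped, at 100.5 to 143.13 FPKM at high Pi and 94.01 to 109.49 at low Pi.

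**Figure D2:**
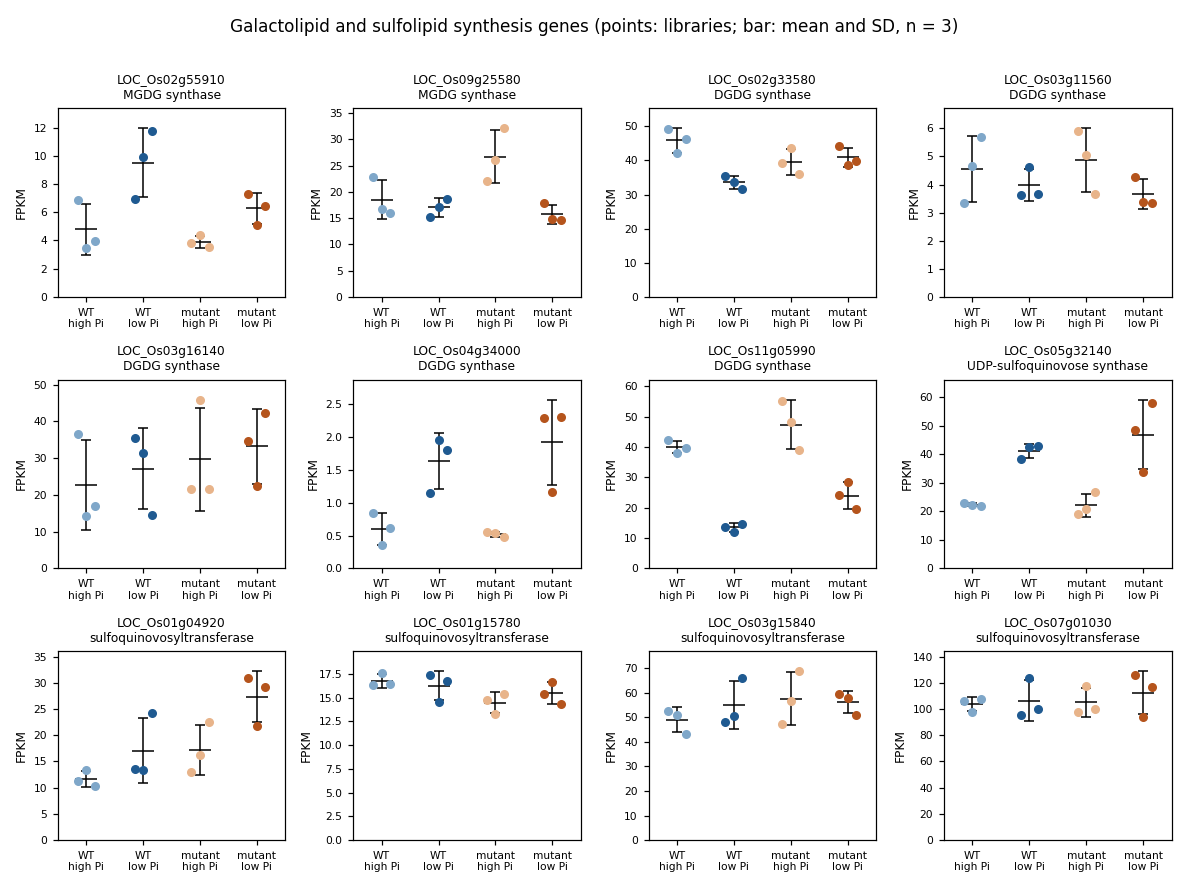
FPKM of the 12 tested genes for galactolipid and sulfolipid synthesis in the 4 groups; points are libraries, horizontal and vertical bars the mean and SD of n = 3. LOC_Os11g05990 drops at low Pi in both genotypes, from 40.1 to 13.5 FPKM in WT, and LOC_Os05g32140 rises, from 22.3 to 41.2 FPKM in WT.

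Sulfolipid is made by UDP-sulfoquinovose synthase, which builds the sugar donor, and by a sulfoquinovosyltransferase that places it on diacylglycerol. The gene of the donor enzyme (SQD1 in Arabidopsis), LOC_Os05g32140, rose at low Pi in both genotypes. WT libraries had 22.88, 22.15 and 21.98 FPKM at high Pi and 38.33, 42.43 and 42.79 at low Pi. Mutant libraries had 19.03, 20.90 and 26.72 at high Pi and 48.69, 33.97 and 58.15 at low Pi. No low-Pi library overlapped a high-Pi library. The log2 fold was 0.85 in WT (SE 0.17, adjusted p = 0.00831) and 1.03 in the mutant (SE 0.17, adjusted p = 0.00222), and both calls held under every alternative run.

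None of the 4 sulfoquinovosyltransferase loci was called in any of the 5 comparisons. LOC_Os07g01030, which had the highest FPKM, ranged from 94.29 to 125.92, LOC_Os03g15840 from 43.36 to 68.78 and LOC_Os01g15780 from 13.28 to 17.55. LOC_Os01g04920 had 11.32, 13.29 and 10.39 FPKM in WT at high Pi and 13.60, 13.33 and 24.21 at low Pi (log2 fold 0.47, adjusted p = 0.234). Its mutant values were 12.97, 16.22 and 22.46 at high Pi and 30.97, 21.86 and 29.27 at low Pi (0.66, with the call missed at an adjusted p of 0.0773). Group means of the summed family lay between 181.5 FPKM (WT, high Pi) and 211.5 FPKM (mutant, low Pi). The tables' gene ontology column placed 9 members in the cellular response to phosphate starvation, 7 of them for galactolipid or sulfolipid synthesis. Of the 8 tested, 1 rose (LOC_Os05g32140) and 1 fell in WT, and 1 rose and 0 fell in the mutant. Over all tested genes 8.43% rose and 4.87% fell in WT, and 10.5% and 8.28% in the mutant. Of the 26 tested genes of the whole term 5 rose and 2 fell in WT, and 4 rose and 1 fell in the mutant.

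Phospholipid breakdown is shared by phospholipases A, which release fatty acids, phospholipase D, which removes the head group and leaves phosphatidate, phospholipase C, which leaves diacylglycerol, and glycerophosphodiesterases, which split the deacylated remainder. Of 41 loci with these roles 17 were tested. At low Pi 3 rose and 1 fell in WT, and 2 rose and 0 fell in the mutant. That is 23.5% and 11.8%, beside 13.3% and 18.8% of all tested genes. LOC_Os03g61130, a phosphoesterase of the non-specific phospholipase C type, rose in both genotypes. It had 45.21, 50.62 and 56.82 FPKM in WT at high Pi and 74.36, 60.02 and 72.50 at low Pi (log2 fold 0.43, adjusted p = 0.0358). In the mutant it had 66.02, 52.60 and 60.40 at high Pi and 80.18, 87.09 and 87.32 at low Pi (0.51, adjusted p = 0.0135). The groups did not overlap in either genotype. The WT call was lost without WT-HP1 (0.118) or WT-HP2 (0.0897), WT-LP1 (0.107) or WT-LP3 (0.128), or MUT-LP2 (0.0513), and in the 6 WT libraries alone (0.0748). It was also lost with the replicate number as a block (0.0521). The mutant call was lost without MUT-HP2 (0.0573) or MUT-LP2 (0.0503).

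A glycerophosphodiesterase, LOC_Os03g40670, gave the largest fold between genotypes in this role. It had 4.01, 2.26 and 4.28 FPKM in WT at high Pi and 6.46, 5.87 and 6.84 at low Pi. Mutant values were 2.17, 1.94 and 1.10 at high Pi and 1.79, 1.70 and 2.48 at low Pi. At low Pi every mutant library lay below every WT library, with a log2 fold of −1.31 (SE 0.20, adjusted p = 0.00321). The rise in WT (0.74, adjusted p = 0.0343) was lost without WT-HP2 (0.109) or WT-LP1 (0.0801), WT-LP2 (0.0587) or WT-LP3 (0.116). It was also lost with a pseudocount of 0.1 (0.0598), with no filter (0.0647), with a filter at FPKM 5 (0.0503) and in the 6 WT libraries alone (0.0564). The replicate number as a block ended it as well (0.0531). The mutant's own response was 0.14, not called.

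Phospholipase D loci did not share a direction. LOC_Os06g40190 had 2.51, 2.02 and 2.36 FPKM in WT at high Pi and 3.43, 3.56 and 4.92 at low Pi (log2 fold 0.58, adjusted p = 0.0175), a call lost without WT-HP2 (0.0660) or WT-LP3 (0.0737) and in the 6 WT libraries alone (0.0522). The mutant already stood above WT at high Pi, at 3.59, 4.34 and 4.78 (0.66, adjusted p = 0.0272). It missed the threshold without any one of WT-HP1 (0.0580), WT-HP2 (0.0781), WT-HP3 (0.0730), MUT-HP2 (0.0842) and MUT-HP3 (0.0887), with no filter (0.0538) and in the 6 high-Pi libraries (0.0852). That difference also missed with the replicate number as a block (0.0534). LOC_Os05g29050, phospholipase D p1, had 5.40, 4.71 and 5.34 FPKM in WT at high Pi and 4.07, 3.54 and 4.18 at low Pi (−0.32, adjusted p = 0.0456). Leaving out any of the 12 libraries ended that call (adjusted p from 0.05005 to 0.127). So did a filter at FPKM 5 (0.0649), no filter (0.0752), the replicate number as a block (0.0667) and a fit to the 6 WT libraries (0.125). At low Pi the mutant was higher, at 5.86, 5.39 and 5.13 (0.39, adjusted p = 0.0184), except without WT-LP2 (0.0618) or MUT-LP1 (0.0762) or MUT-LP2 (0.0546). The locus with the highest FPKM of the family, LOC_Os01g07760, had group means of 50.8 to 60.1 FPKM and no call.

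Most of the remaining calls in this role were lost under some alternatives. LOC_Os02g58500, a phospholipase A2, was lower in the mutant at low Pi, at 2.20, 2.63 and 2.08 FPKM against 4.45, 3.65 and 3.75 in WT (log2 fold −0.58, adjusted p = 0.0111), and this held under every alternative. LOC_Os05g07880 (phospholipase D) was higher there (0.76, adjusted p = 0.0390), and LOC_Os05g32380 (phospholipase) lower (−0.69, adjusted p = 0.0379). The call on LOC_Os05g07880 was lost without WT-HP3 (0.0542), WT-LP2 (0.119) or WT-LP3 (0.0640), MUT-HP2 (0.0534), or MUT-LP1 (0.108) or MUT-LP2 (0.143). That on LOC_Os05g32380 was lost without the same libraries, at 0.0511, 0.115, 0.143, 0.0522, 0.142 and 0.0932. Both were lost with no filter (0.0684 and 0.0691) and in the 6 low-Pi libraries (0.0838 and 0.0872), and the latter after median-of-ratios scaling (0.0556). The former was lost with the replicate number as a block (0.0699). LOC_Os06g44060, with a phospholipase D motif, rose in the mutant (0.54, adjusted p = 0.0290), a call lost without MUT-HP2 (0.107) or MUT-HP3 (0.0566) or MUT-LP1 (0.05003) or MUT-LP3 (0.106), with no filter (0.0570) and in the 6 mutant libraries (0.0600).

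**Figure D3:**
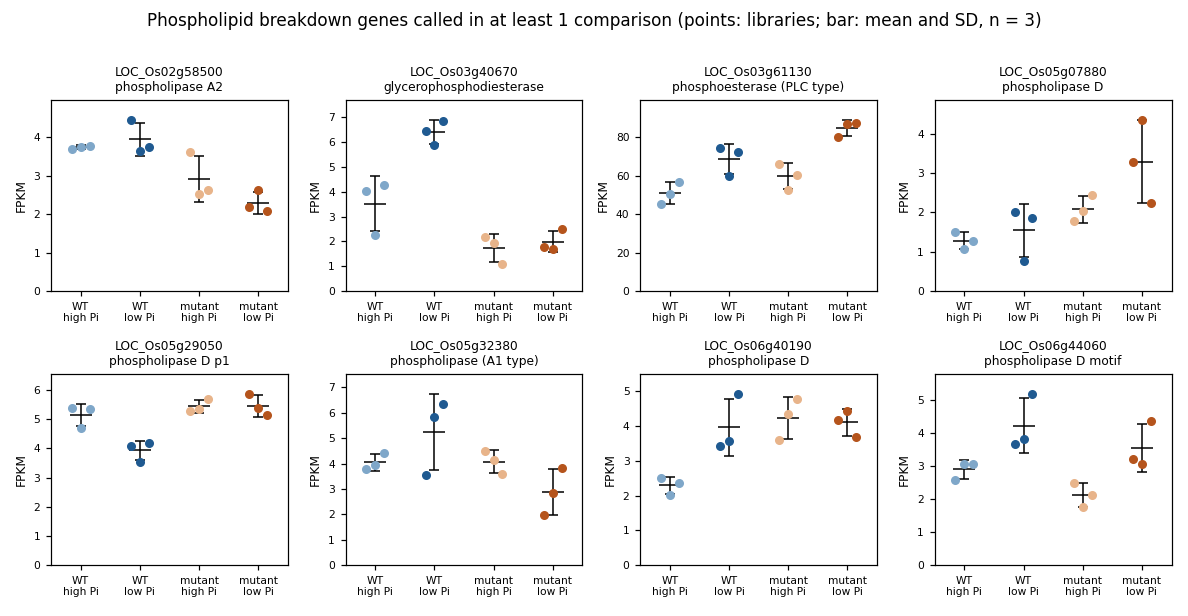
FPKM of the 8 phospholipid breakdown genes called in at least 1 comparison, in the 4 groups; points are libraries, bars the mean and SD of n = 3. LOC_Os03g40670 is at 5.87 to 6.84 FPKM in the low-Pi libraries of WT and at 1.70 to 2.48 in those of the mutant.

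Phosphatidate phosphatases turn phosphatidate into diacylglycerol, and diacylglycerol kinases run the reverse step. Of 15 tested loci 1 rose and 1 fell at low Pi in WT, and 3 rose and 1 fell in the mutant, 13.3% and 26.7% beside 13.3% and 18.8% of all tested genes. LOC_Os08g27040, a lipid phosphatase, had 25.46, 22.74 and 21.65 FPKM in WT at high Pi, above the 16.25, 14.49 and 14.42 of the mutant (log2 fold −0.60, adjusted p = 0.0102; 0.0674 in the 6 libraries alone). At low Pi it had 29.06, 26.06 and 28.04 in WT and 23.26, 21.61 and 24.86 in the mutant, where it rose (0.59, adjusted p = 0.00152). The diacylglycerol kinase LOC_Os12g12260 had, at low Pi, 3.58, 3.18 and 4.12 FPKM in WT but 1.13, 1.27 and 1.18 in the mutant (−1.07, adjusted p = 0.00732). At high Pi the values overlapped, with 3.40, 1.26 and 1.64 in WT and 1.27, 1.72 and 1.39 in the mutant.

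Another 2 diacylglycerol kinases were lower in the mutant at low Pi. They were LOC_Os04g54200 (−1.05, adjusted p = 0.0176) and LOC_Os02g54650 (−0.68, adjusted p = 0.0231), both named after their values were seen. The call on LOC_Os04g54200 was lost without MUT-LP1 (0.0600) or WT-LP3 (0.0733), and that on LOC_Os02g54650 without MUT-LP1 (0.0709) or MUT-LP2 (0.0882) or WT-LP2 (0.0591) or WT-LP3 (0.0900). LOC_Os08g08110, the kinase with the highest FPKM of those called, fell at low Pi from 29.29, 31.19 and 36.51 FPKM to 21.97, 23.82 and 21.72 in WT (−0.50, adjusted p = 0.0121; 0.0516 without WT-LP3). In the mutant it went from 37.95, 34.59 and 30.36 to 26.85, 23.54 and 26.58 (−0.40, adjusted p = 0.0250), and this call was lost without MUT-HP1 (0.0761) or MUT-HP2 (0.0729) or MUT-LP2 (0.0968) or MUT-LP3 (0.0512), and in the 6 mutant libraries (0.0550). A block on the replicate number also ended this mutant call (0.0539). LOC_Os12g38780 was higher in the mutant at high Pi (0.60, adjusted p = 0.0230), except without WT-HP1 (0.0655) or WT-HP3 (0.0743) or MUT-HP2 (0.0646) or MUT-HP3 (0.0586), and in the 6 high-Pi libraries (0.0879). With the replicate number as a block it was not called (0.0520).

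Phospholipid head groups are attached through cytidine-activated intermediates. In this role 25 loci were tested: 3 rose and 2 fell in WT, and 2 rose and 6 fell in the mutant. Called were 20% and 32%, against 13.3% and 18.8% of all tested genes; those that fell in the mutant made 24%, against 8.28%. LOC_Os10g42790 has the orthology of the enzyme that activates choline phosphate with a cytidine nucleotide for phosphatidylcholine. It had 9.93, 10.79 and 11.17 FPKM in WT at high Pi and 11.28, 14.75 and 15.97 at low Pi (log2 fold 0.36, adjusted p = 0.0988). In the mutant it had 13.15, 11.66 and 11.98 at high Pi and fell to 6.02, 4.93 and 6.56 at low Pi (−0.96, SE 0.13, adjusted p = 0.000736). The mutant low-Pi libraries lay below all 9 others. At low Pi the mutant differed from WT by −1.13 (adjusted p = 0.0011), and the responses differed by −1.32 (SE 0.18, adjusted p = 0.00513). These calls held under every alternative run.

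LOC_Os05g47540, a phosphoethanolamine methyltransferase by orthology and so an enzyme on the route to phosphocholine, fell in WT. Its values were 82.07, 93.66 and 81.08 FPKM at high Pi and 50.88, 58.85 and 49.31 at low Pi (log2 fold −0.68, adjusted p = 0.00795). Mutant values, 53.07, 55.17 and 72.80 at high Pi and 58.69, 46.93 and 57.57 at low Pi, overlapped. LOC_Os05g48060, a phosphatidylserine synthase, rose in the mutant from 0.43, 0.86 and 0.38 to 1.66, 1.96 and 2.80 FPKM (1.01, adjusted p = 0.00206). In WT it had 1.3, 0.98 and 1.19 at high Pi and 2.72, 2.07 and 2.08 at low Pi (0.61, adjusted p = 0.0341), a call lost without any one WT library (0.0555 to 0.107), with no filter (0.0519) and with a pseudocount of 0.1 (0.0592). The replicate number as a block ended the WT call too (0.0690). LOC_Os06g10280, a CDP-alcohol phosphatidyltransferase, rose in the mutant from 2.02, 2.45 and 2.17 to 4.75, 3.59 and 4.64 FPKM (0.72, adjusted p = 0.00244). Its WT call (0.44, adjusted p = 0.0367) was lost without WT-HP1 (0.114) or WT-HP2 (0.106) or WT-LP1 (0.0932), WT-LP2 (0.0630) or WT-LP3 (0.105), after median-of-ratios scaling (0.0713), with no filter (0.0690) and in the 6 WT libraries (0.0708). A block on the replicate number ended that call as well (0.0603).

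Glycerol phosphate and acyltransfer enzymes build phosphatidate or exchange fatty acids on finished lipids. Of 26 tested loci 0 rose and 3 fell in WT, and 2 rose and 4 fell in the mutant, or 11.5% and 23.1% where all tested genes gave 13.3% and 18.8%. LOC_Os03g52010, described as a lecithin cholesterol acyltransferase, had 11.02, 11.87 and 10.28 FPKM in WT at high Pi and 3.87, 4.30 and 4.42 at low Pi. Mutant values were 12.64, 16.03 and 15.17 at high Pi and 6.14, 5.04 and 3.62 at low Pi. It fell in both genotypes without overlap (log2 fold −1.21, adjusted p = 0.000479 in WT; −1.41, adjusted p = 0.00016 in the mutant). LOC_Os06g49790, by orthology a lysophospholipid acyltransferase, which refills lysophospholipids with a fatty acid, behaved alike in direction. It went from 54.62, 47.05 and 46.13 to 28.48, 30.40 and 33.99 FPKM in WT (−0.65, adjusted p = 0.00156), and from 50.67, 53.51 and 48.02 to 33.79, 29.57 and 30.62 in the mutant (−0.68, adjusted p = 0.00108). These 4 calls held under every alternative.

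In the mutant, an acyltransferase (LOC_Os01g70570) rose from 15.64, 13.79 and 14.65 to 22.98, 23.10 and 24.96 FPKM (0.65, adjusted p = 0.00534). A glycerol-3-phosphate dehydrogenase, LOC_Os01g74000, which supplies the glycerol backbone, rose from 0.66, 0.49 and 0.98 to 1.42, 1.77 and 1.81 (0.65, adjusted p = 0.00757). Another such dehydrogenase, LOC_Os05g41590, named after its values were seen, was the 1 member of this role called between genotypes. At low Pi it had 15.51, 12.55 and 10.57 FPKM in WT and 3.11, 3.78 and 3.39 in the mutant (−1.64, SE 0.35, adjusted p = 0.0119). At high Pi the values overlapped, with 10, 3.25 and 4.09 in WT and 3.56, 8.71 and 3.43 in the mutant.

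Triacylglycerol synthesis and lipases had 17 tested loci, of which 2 rose and 1 fell in WT, and 1 rose and 2 fell in the mutant. The called share was 17.6% in each genotype, beside 13.3% and 18.8% of all tested genes. Without LOC_Os01g46240, which the filter favoured, 1 of 16 rose and 1 fell in WT, and 0 rose and 2 fell in the mutant. LOC_Os09g23150, a monoglyceride lipase, which frees the last fatty acid of a glyceride, went from 19.86, 13.08 and 13.12 to 8.05, 7.34 and 10.08 FPKM in WT (log2 fold −0.77, adjusted p = 0.0152; 0.0518 without WT-LP2). In mutant plants it fell from 18.95, 20.04 and 21.61 to 10.90, 10.71 and 7.71 (−0.99, adjusted p = 0.00307). LOC_Os01g21560, an esterase or lipase, rose in WT from 2.24, 2.59 and 3.16 to 4.75, 6.61 and 5.49 FPKM (0.85, adjusted p = 0.00367). The mutant had 2.69, 2.59 and 2.35 FPKM at low Pi, below WT (−0.89, adjusted p = 0.00413). LOC_Os02g43700, a triacylglycerol lipase like protein, was also lower in the mutant at low Pi, at 7.32, 7.17 and 8.50 FPKM against 13.69, 15.95 and 18.97 in WT (−0.98, adjusted p = 0.00552).

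Aldehyde dehydrogenases and sugar enzymes stand at the edge of the glycerolipid map. LOC_Os06g15990, an aldehyde dehydrogenase, rose at low Pi from 244.63, 262.35 and 320.23 to 455.82, 416.88 and 419.23 FPKM in WT (log2 fold 0.65, adjusted p = 0.00692). In mutant plants it rose from 253.02, 232.80 and 274.87 to 432.12, 446.36 and 521.64 (0.88, adjusted p = 0.00105). High- and low-Pi libraries did not overlap. LOC_Os11g08300, another such enzyme, rose in the mutant from 79.64, 53.49 and 44.18 to 102.84, 172.06 and 151.88 FPKM (1.26, adjusted p = 0.0105). In all 1 of 20 tested loci rose and 0 fell in WT, and 3 rose and 0 fell in the mutant, 5% and 15% beside the same shares of all tested genes, 13.3% and 18.8%. The aldo/keto reductase LOC_Os04g08550 was lower in low-Pi mutant libraries (−0.77, adjusted p = 0.0209), a call lost without WT-LP1 (0.0581) or WT-LP3 (0.0612) or MUT-LP1 (0.0812).

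**Figure D4:**
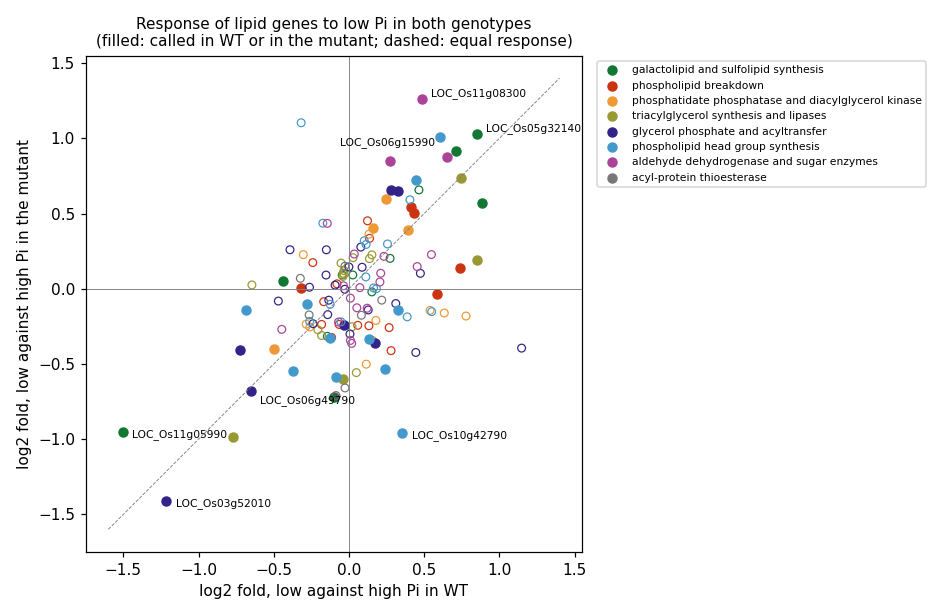
Log2 fold at low against high Pi in WT (horizontal) and in the mutant (vertical) for the 138 tested genes with a lipid role; filled points were called in WT or in the mutant, and the dashed line marks equal responses. LOC_Os11g05990 and LOC_Os03g52010 lie low on both axes, while LOC_Os10g42790 lies at 0.36 in WT and −0.96 in the mutant.

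Few members differed between genotypes at high Pi: 3 tested members were higher and 4 lower in the mutant, 3.47% beside 3.58% of all tested genes (1.3% higher, 2.27% lower). Of the 4, LOC_Os03g15460 was favoured by the filter. Among galactolipid and sulfolipid genes 0 of 12 were called by limma, and 1 had an unadjusted p below 0.05. The count of 7 fell to 3 without WT-HP1, to 1 without WT-HP3 and to 3 without MUT-HP2, and in the 6 high-Pi libraries alone limma called 0, with 33 at an unadjusted p below 0.05. An aldo/keto reductase, LOC_Os10g02380, had 6.58, 8.46 and 8.02 FPKM in WT and 3.06, 1.72 and 3.79 in the mutant (log2 fold −1.20, adjusted p = 0.0169), a call lost without WT-HP3 (0.0546) and in the 6 high-Pi libraries (0.0706). It rose in the mutant at low Pi, to 5.34, 4.91 and 7.22 (0.85, adjusted p = 0.0167), except without MUT-HP2 (0.0563) or MUT-LP3 (0.0649) and in the 6 mutant libraries (0.0521). LOC_Os01g51920, by orthology a kinase of choline or ethanolamine and named after its values were seen, had 118.03, 54.84 and 61.65 in WT and 25.77, 27.97 and 9.69 in the mutant (−1.88, adjusted p = 0.0282). That call was lost without WT-HP1 (0.0769) or WT-HP3 (0.0651) or MUT-HP3 (0.0650), with no filter (0.0533) and in the 6 high-Pi libraries (0.108). With the replicate number as a block it was lost as well (0.0520). The hydrolase LOC_Os01g10250 was higher in the mutant (0.84, adjusted p = 0.0350), but not without WT-HP2 (0.0972) or WT-HP3 (0.106), MUT-HP1 (0.0584), MUT-HP2 (0.0741) or MUT-HP3 (0.0955), or MUT-LP1 (0.0531) or MUT-LP2 (0.0518), nor with no filter (0.0651) or in the 6 high-Pi libraries (0.132).

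At low Pi 10 tested members were higher and 24 lower in the mutant than in WT, 16.8% beside 15.9% of all tested genes (4.72% higher, 11.1% lower). After median-of-ratios scaling the split was 18 higher and 20 lower, and after upper-quartile scaling 16 and 22. The 34 calls became 21 without WT-LP2, 20 without WT-LP3, 15 without MUT-LP1 and 18 without MUT-LP2. Of the 138 tested members with a lipid role 6 were higher and 14 lower, 14.5% beside the same 15.9% of all tested genes. Of the 34 tested dividing cell markers 0 were higher and 11 lower in the same comparison, and their part in these counts was not tested.

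The low-Pi response differed between genotypes for 4 of 202 tested members, 1.98% beside 3.64% of all tested genes (1.49% higher and 2.14% lower in the mutant), and all 4 had the lower response in the mutant. The count was 9 without WT-HP1, 7 without WT-LP1 and 2 without WT-HP2, WT-LP3, MUT-HP2, MUT-LP1 or MUT-LP2. After median-of-ratios scaling 1 member had the higher and 4 the lower response. Of the 12 galactolipid and sulfolipid genes 0 were called, with 3 at an unadjusted p below 0.05. Besides LOC_Os10g42790, 1 further member with a lipid role was called. LOC_Os01g58390, a haloacid dehalogenase with the orthology of a phosphatidylglycerophosphate phosphatase, had 10.61, 10.23 and 9.67 FPKM in WT at high Pi and 11.31, 10.74 and 14.77 at low Pi. In mutant plants it went from 10.69, 11.90 and 13.22 to 7.17, 7.90 and 8.66 (log2 fold −0.54, adjusted p = 0.0120). The responses differed by −0.77 (SE 0.17, adjusted p = 0.0357). It missed the threshold without WT-HP2 (0.0851) or WT-HP3 (0.0774), WT-LP3 (0.0708), MUT-HP2 (0.0780) or MUT-HP3 (0.0667), or MUT-LP1 (0.0902) or MUT-LP2 (0.0845), and with no filter (0.0628).

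The other two belong to families with no known step in lipid metabolism. LOC_Os11g08210, a no apical meristem (NAC) protein of a transcription factor family, had 20.45, 12.63 and 20.48 FPKM in WT at high Pi and 20, 23.65 and 45.92 at low Pi. Mutant values were 19.94, 24.29 and 28.44 at high Pi and 8.06, 7.94 and 9.37 at low Pi, below all other libraries. The responses differed by −2.06 (SE 0.38, adjusted p = 0.0161), under every alternative. LOC_Os02g31290, described as AML1, a Mei2-like RNA-binding protein in Arabidopsis, had 39.05, 32.83 and 42.69 in WT at high Pi and 38.10, 42.13 and 45.05 at low Pi. Its mutant values were 44.56, 47.88 and 46.30 at high Pi and 27.26, 29.35 and 32.44 at low Pi. The difference of −0.76 (SE 0.15, adjusted p = 0.0243) was lost without WT-HP2 (0.0564), WT-LP2 (0.0518) or WT-LP3 (0.0688), MUT-HP2 (0.0615) or MUT-LP1 (0.0642) or MUT-LP2 (0.0649).

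**Figure D5:**
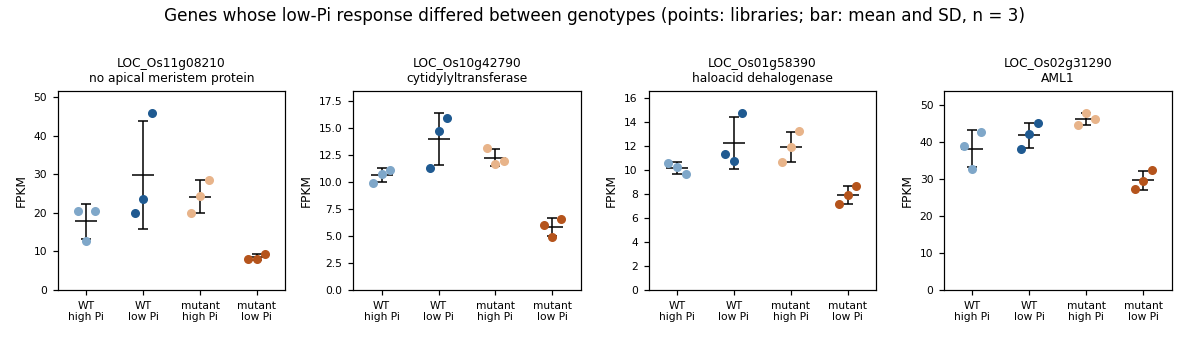
FPKM of the 4 members whose low-Pi response differed between genotypes, in the 4 groups; points are libraries, bars the mean and SD of n = 3. In each panel the 3 mutant low-Pi libraries lie below every other library, a description of genes picked by the test of that difference.

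Loci described as other protein families included the largest response of all tested members. The 7 loci described as DAG proteins of the chloroplast carry the orthology of an acyltransferase, whereas DAG in Antirrhinum names a protein needed for chloroplast differentiation and greening, not diacylglycerol. Of these, 5 rose at low Pi in WT and 6 in the mutant, 71.4% and 85.7% where 8.43% and 10.5% of all tested genes rose. The group is shown for its high share, so that share is a description. LOC_Os08g04450 had 27.13, 23.04 and 29.05 FPKM in WT at high Pi and 210.02, 162.39 and 229.00 at low Pi (log2 fold 2.87, adjusted p = 0.000327). In mutant plants it had 8.04, 13.16 and 26.68 at high Pi and 106.96, 162.61 and 100.58 at low Pi (2.99, adjusted p = 0.000229). LOC_Os09g33480 rose from 61.13, 74.55 and 66.14 to 102.24, 95.20 and 107.80 FPKM in WT (0.59, adjusted p = 0.00516). The same locus also rose in the mutant, and both calls held under every alternative. LOC_Os04g51280 rose by 1.90 in the mutant (adjusted p = 0.000859) and by 1.08 in WT (adjusted p = 0.0211), the latter lost without WT-HP3 (0.0755) or WT-LP1 (0.0590) or WT-LP3 (0.0784). In all, 10 of 58 tested loci of other families rose and 1 fell in WT, and 8 rose and 4 fell in the mutant. The called shares were 19% and 20.7%, beside 13.3% and 18.8% of all tested genes. Without LOC_Os01g45020, which the filter favoured, 9 of 57 rose in WT and 7 in the mutant. Other groups of this class had lower shares: 1 of 12 tested NAC loci rose in each genotype. Among 14 tested growth regulator loci 2 rose in WT and 0 in the mutant. The LHY-type clock gene LOC_Os08g06110 differed in the same comparisons, from 274.6 to 37.7 FPKM in WT and from 475.7 to 68.6 in the mutant, and the part of harvest hour was not tested.

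The 6 tested loci described only as expressed protein gave 2 calls, both near 1 FPKM. They were 1 lower at low Pi in WT and 1 lower in the mutant at high Pi. Each makes 16.7%, beside 13.3% and 3.58% of all tested genes in the respective comparisons. LOC_Os10g08018 had 0.8, 1.3 and 1.19 FPKM in WT at high Pi and 0.40, 0.40 and 0.67 at low Pi (log2 fold −0.49, adjusted p = 0.0454). LOC_Os03g15460 had 0.86, 1.05 and 0.85 in WT at high Pi and 0.12, 0.19 and 0.06 in the mutant. It entered the test through WT libraries alone, 1 at high and 2 at low Pi, so its levels are a description. LOC_Os10g08018 missed the threshold without any one of WT-HP2, WT-HP3 and the WT-LP and MUT-LP libraries (8 of 12 fits, adjusted p from 0.0559 to 0.145), and in the 6 WT libraries (0.0789). The replicate number as a block ended its call too (0.082). Acyl-protein thioesterases, which remove fatty acids from proteins, had 0 of 6 loci called by limma in each comparison, and at an unadjusted p below 0.05 they had 2 for the genotypes at high Pi and 1 in each of the others. Of all tested genes 13.3% and 18.8% were called at low Pi in WT and in the mutant. Between genotypes 3.58% were called at high Pi and 15.9% at low Pi, and 3.64% in the interaction.

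Neighbouring maps supply the fatty acids and other lipids, and called genes among the 3 of smallest p in each map and genotype are named. A gene named for a single genotype may have changed in the other as well. In fatty acid synthesis 4 of 39 tested genes rose and 3 fell at low Pi in WT, and 2 rose and 4 fell in the mutant, 17.9% and 15.4% beside 13.3% and 18.8% of all tested genes. LOC_Os05g36000, by orthology a dehydratase of chain elongation, rose from 3.87 to 8.51 FPKM in WT (log2 fold 0.96, adjusted p = 0.00283) and from 4.22 to 8.20 in the mutant (0.83, adjusted p = 0.00465). The 3-oxoacyl synthase LOC_Os07g42420, of enzymes that lengthen the acyl chain, rose from 2.14 to 4.40 FPKM in WT (0.78, adjusted p = 0.00402) and from 1.74 to 3.83 in the mutant (0.82, adjusted p = 0.00235). The acyl-desaturase LOC_Os01g69080 fell from 71.0 to 37.6 in WT (−0.90, adjusted p = 0.00141) and from 93.8 to 44.2 in the mutant (−1.09, adjusted p = 0.000406).

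For unsaturated fatty acids 1 of 34 rose and 5 fell in WT, and 3 rose and 5 fell in the mutant, so that 17.6% and 23.5% were called. The fatty acid desaturase LOC_Os02g48560, of enzymes that place double bonds, went from 83.2 to 30.8 FPKM in WT (log2 fold −1.40, adjusted p = 0.00111) and from 73.9 to 24.8 in the mutant (−1.52, adjusted p = 0.000603). The omega-3 desaturase LOC_Os03g18070 fell in WT from 136.6 to 42.9 (−1.62, adjusted p = 0.00679), and another, LOC_Os07g49310, in the mutant from 7.15 to 2.92 (−1.08, adjusted p = 0.00756). Means in the other genotype fell too. They went from 163 to 72.6 for LOC_Os03g18070 in the mutant and from 4.72 to 1.87 for LOC_Os07g49310 in WT.

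In sphingolipid metabolism 2 of 61 rose and 5 fell in WT, and 3 rose and 8 fell in the mutant (11.5% and 18% called). By orthology LOC_Os01g66850 is a serine palmitoyltransferase, which starts the sphingoid base, but its description names a pectin acetyl esterase domain. These annotations conflict, so which enzyme the locus encodes is uncertain. LOC_Os01g66850 fell from 45.7 to 16.7 FPKM in WT (log2 fold −1.41, adjusted p = 6.58e-05) and from 62.9 to 25.3 in the mutant (−1.28, adjusted p = 0.000114). LOC_Os04g33060, by orthology the reductase of the next step, fell by 1.31 in WT (adjusted p = 0.000555) and by 1.34 in the mutant (adjusted p = 0.000405). LOC_Os03g10140, described as a C2H2 zinc finger protein, rose in WT from 5.42 to 15.3 FPKM (1.32, adjusted p = 0.000179), and LOC_Os01g57350, described as a diacylglycerol kinase, in the mutant from 2.11 to 6.24 (1.25, adjusted p = 0.00164). In the mutant LOC_Os03g10140 had means of 7.33 at high and 7.05 at low Pi. In WT LOC_Os01g57350 went from 2.56 to 6.33 FPKM.

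In inositol phosphate metabolism 5 of 107 rose and 7 fell in WT, and 8 rose and 13 fell in the mutant (11.2% and 19.6% called). The smallest p belonged to a gene that rose, LOC_Os01g59530, described as the calmodulin-related calcium sensor OsCML1. It went from 37.7 to 112.9 FPKM in WT (log2 fold 1.56, adjusted p = 1.78e-05) and from 19.3 to 91.9 in the mutant (2.2, adjusted p = 1.12e-06). Inositol-3-phosphate synthase, LOC_Os03g09250, which makes the inositol ring, fell from 30.2 to 9.71 FPKM in WT (−1.55, adjusted p = 0.000173) and from 64.3 to 13.7 in the mutant (−2.16, adjusted p = 1.83e-05). LOC_Os04g37710, described as a serine hydrolase, fell in WT from 57.8 to 32.9 (−0.78, adjusted p = 0.00151), and LOC_Os02g14929, described as a T-complex protein, rose in the mutant from 2.87 to 7.40 (adjusted p = 0.000315). LOC_Os04g37710 went from 68.2 to 37.8 FPKM in the mutant, and LOC_Os02g14929 from 1.68 to 3.72 in WT. Ether lipid genes had 1 of 12 higher and 1 lower in WT, and 2 higher and 0 lower in the mutant, 16.7% in each. LOC_Os02g03730, described as a SWIB domain protein, rose by 0.59 in WT (adjusted p = 0.0211) and by 0.84 in the mutant (adjusted p = 0.00272). Of glycosyltransferases, LOC_Os03g55020 fell by 1.51 in WT (adjusted p = 0.0109), and LOC_Os10g18490 rose by 1.52 in the mutant (adjusted p = 0.0190). LOC_Os03g55020 had means of 3.78 and 3.28 FPKM at high and low Pi in the mutant, and LOC_Os10g18490 12.5 and 8.66 in WT.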

How the data were processed

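The authors deposited FPKM for every gene and library, per the file headers. StringTie 1.3.6, HISAT2 2.0.5 and CASAVA 2.17 are listed among the tools, per the submitters' processing notes. Neither the genome build nor the treatment of multi-mapping reads is given in the sources used here, so values of near-identical copies are uncertain. Depth is unknown, no counting interval was computed, and the authors' own fold and p columns were not used. Each library stood in 2 of the 4 tables with identical values, and 2 columns without a label were not used.

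Members and lists were chosen with earlier results of these data known. Named were every galactolipid and sulfolipid gene, every called breakdown gene, up to 4 called genes of smallest p per other role, and members called in the interaction; others are marked. Descriptions come from the files, and the supplied gene table matched 0 identifiers, so no sequence is shown.

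The 17630 genes that reached an FPKM of 1 in 3 or more libraries entered the test on log2(FPKM + 1), a scale that understates folds of low genes. The fit was limma 3.58.1 in R 4.3.3 (moderated test with mean trend, two-sided) over 12 libraries without a block. Alternatives changed the pseudocount, filter, scaling, block and samples. Replicate numbers did not pair libraries: 3 of 18 same-numbered pairs had correlated deviations above 0.1. The code was tested on simulated data. Tables and plots used Python 3.11.15, pandas 2.3.3, numpy 2.4.6 and matplotlib 3.10.9.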

Additional observations from a re-analysis of the deposited data

Results flagged for a closer look

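A test of the difference between the low-Pi responses of the genotypes (the interaction in limma, adjusted over 17630 genes) singled out 4 members. The mutant's response was lower than that of WT by a log2 difference of −2.06 for LOC_Os11g08210 (SE 0.38, adjusted p = 0.0161) and −1.32 for LOC_Os10g42790 (SE 0.18, adjusted p = 0.00513). It was lower by −0.77 for LOC_Os01g58390 (SE 0.17, adjusted p = 0.0357) and by −0.76 for LOC_Os02g31290 (SE 0.15, adjusted p = 0.0243). In each of the 4, all 3 mutant low-Pi libraries lay below the other 9. The test that picked these genes favours such a pattern, so it is a description and no further support.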

How the results depend on the processing

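With a filter at FPKM 5, the members called numbered 4 for mutant against WT at high Pi (7 in the reported fit) and 7 for the interaction (4 in the reported fit). In fits to only the 6 libraries compared, 22 members were called at low Pi in WT (35 reported), and 0 for mutant against WT at high Pi by limma, where 33 had an unadjusted p below 0.05. With the replicate number as a block, 4 members were called for mutant against WT at high Pi and 24, 35, 27 and 4 in the WT, mutant, low-Pi genotype and interaction comparisons. Leaving out 1 library at a time gave 13 to 36 calls at low Pi in WT, 27 to 45 in the mutant, 1 to 8 for the genotypes at high Pi, 15 to 39 at low Pi and 2 to 9 for the interaction. Of 122 member calls over the 5 comparisons, 51 held under every alternative, 71 were lost under at least 1 and 0 reversed. No fit to 6 libraries exists for the interaction. Depth is unknown, so the counting error of loci near 1 FPKM, such as LOC_Os04g34000, could not be given.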
